A study of Mus musculus with 8 samples.

Results

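The 9 genes described here encode the 3 TMEM30 (CDC50) subunits of mammalian phospholipid flippases, *Tmem30a*, *Tmem30b* and *Tmem30c*, and 6 P4-ATPases, the catalytic flippase subunits *Atp8a1*, *Atp8b3*, *Atp8b5*, *Atp9b*, *Atp11a* and *Atp11b*. They were taken by gene symbol from the 55357 genes of the expression table, and all 9 were found. *Tmem30c* was chosen because it was lower in mutant than in control germ cells in these same libraries, and its paralogs and the ATPases were chosen beside it, so that the difference between genotypes in these 9 genes is given as a description without a test. RNA was measured in germ cells of C57BL/6 male mice at 15 days after birth, with 1 library for each of 4 control mice (*Mgat2*[F/F]) and 4 mutants (*Mgat2*[F/F]:*Stra8*-iCre, termed *Mgat2* cKO). *Mgat2* encodes the Golgi N-acetylglucosaminyltransferase that makes biantennary complex N-glycans, and the study asked how its loss from spermatogonia changes germ cell transcripts.

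All 8 mice carried floxed *Mgat2* alleles, and the cKO mice alone carried the *Stra8*-iCre transgene, which is expressed in spermatogonia from soon after birth. Effects of the recombinase and of the deletion therefore cannot be told apart. The cells were the filtered suspension left after collagenase and trypsin digestion of the tubules, with no sort by a marker. Library totals ranged from 12584726 to 15907505 expected counts, in which 3 counts, taken as the floor of detection, were worth 0.190 to 0.234 CPM. CPM (counts scaled to the library total) were adjusted with edgeR's TMM factors and compare 1 gene between libraries, whereas TPM, in which transcripts are also scaled for length, compare genes.

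P4-ATPases move phosphatidylserine and phosphatidylethanolamine from the outer to the cytosolic leaflet of a membrane, and so keep phosphatidylserine off the cell surface until scramblases are activated in dying cells. Most of them leave the endoplasmic reticulum only as a complex with a TMEM30 protein, a glycoprotein that spans the membrane on both sides of a large extracellular domain. ATP9A and ATP9B are known to travel without such a subunit. In the testis, phosphatidylserine on dying germ cells is recognized by Sertoli cells, and the testis-enriched flippases ATP8B3 and ATP8B5 have been linked to the acrosome of spermatids and sperm.

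The labelled germ cell fraction was checked against marker lists. Markers of undifferentiated spermatogonia summed to 618 to 911 TPM and those of differentiating spermatogonia to 380 to 567 TPM over the 8 libraries. *Uchl1* alone gave 81.6% of the sum for undifferentiated spermatogonia. Early meiotic markers summed to 761 to 1184 TPM. Sertoli cell markers summed to 7372 to 9164 TPM in controls and 7822 to 9331 TPM in cKO libraries, and 11 of the 12 Sertoli genes were among the genes tested, so transcripts of supporting cells were abundant in both genotypes. Leydig cell markers reached at most 87.7 TPM and macrophage markers 39.4 TPM. Peritubular and endothelial markers summed to 328 to 455 TPM in controls and 303 to 585 TPM in cKO libraries, and *Acta2* gave 75.2% of that sum. The 12 pachytene spermatocyte markers summed to 657 to 2398 TPM in controls and 306 to 831 TPM in cKO libraries, and these ranges overlapped. The 10 spermatid markers summed to 33.8 to 80.7 TPM in controls and 18.8 to 34.3 TPM in cKO libraries, with overlap. Of these, 2, *Tnp2* and *Prm1*, did not reach 0.1 TPM in any library. *Acrv1*, *Prm2* and *Catsper3* stayed under 1 TPM in all libraries, and *Tnp1* lay below the floor in all controls. *Dbil5* gave 44.0% of the sum, and *Acr* and *Spaca1* had the next highest TPM. The paper describes few round spermatids even at a later prepubertal age, so the sum is not read as a count of spermatids. Replicate 1 stood apart in both genotypes, with the highest pachytene sum of its group, and results that rest on it are given with and without it.

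The targeted gene, *Mgat2* (chr12:69230931-69233544, GRCm39, forward strand, 1 exon), measured 69.8, 31.8, 64.3 and 59.8 CPM in control replicates 1 to 4 and 35.3, 20.1, 37.6 and 16.03 CPM in cKO replicates 1 to 4. The lowest control lay below the 2 highest cKO libraries, so the genotypes overlapped. The mean was 56.4 ± 16.9 CPM in controls and 27.2 ± 10.8 CPM in cKO (SD, n = 4 each). The log2 fold change (cKO over control) was −1.05 (SE 0.36), with an adjusted p of 0.47 by edgeR's quasi-likelihood test and 0.024 by DESeq2, both after Benjamini-Hochberg adjustment. Reads over 304 bases that *Mgat2* shares with *Rpl36al* on the opposite strand could not be assigned by strand, because the libraries were unstranded.

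*Tmem30c*, the TMEM30 subunit enriched in testis, is the gene that led the choice of members. It lies on chr16:57086502-57113228 on the reverse strand, in 7 merged exons. Control replicates 1 to 4 measured 27.2, 16.3, 25.7 and 10.9 CPM, and cKO replicates 1 to 4 measured 6.84, 4.21, 2.02 and 2.06 CPM. Every cKO library lay below every control library, and the gap ran from 6.84 to 10.9 CPM. These values rested on 140 to 406 counts in controls and 29 to 103 counts in cKO, all above the floor. The mean of 20.0 ± 7.73 CPM in controls was 5.29 times the mean of 3.78 ± 2.28 CPM in cKO (SD, n = 4 each), and the log2 fold change was −2.40 (SE 0.47). In replicates 2 to 4 alone the log2 fold change was −2.67 (SE 0.47). Exons of *Tmem30c* share 111 bases, 2.81% of their length, with the antisense gene *Gm26800*.

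*Tmem30a*, the widely expressed subunit that serves most P4-ATPases in somatic cells (chr9:79675532-79700853, reverse strand, 8 merged exons), was nearly level. It measured 164.4, 144.7, 172.1 and 146.1 CPM in controls and 164.0, 157.4, 169.7 and 161.6 CPM in cKO. The cKO values lay within the control range. The means were 156.8 ± 13.6 and 163 ± 5.17 CPM (SD, n = 4 each), and the log2 fold change was 0.06 (SE 0.07). Exons of *Tmem30a* share 8.97% of their length with the antisense gene *4930429F24Rik*.

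*Tmem30b*, a paralog written in a single exon and known from epithelial tissues (chr12:73590176-73593166, reverse strand), was barely detected. Controls measured 1.63, 2.53, 0.88 and 1.09 CPM and cKO libraries 1.59, 1.23, 1.74 and 1.63 CPM, from 14 to 39 counts per library. The genotypes overlapped throughout. *Tmem30b* reached 1 TPM in 1 library only, control replicate 2 with 1.48 TPM, and entered the tested genes through that value. Its log2 fold change was 0.01 (SE 0.38), and the sign turned in 5 of 19 alternative settings.

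Because of these levels, the make-up of the TMEM30 transcripts differed between libraries. *Tmem30c* gave 24.9%, 15.5%, 21.9% and 11.9% of the summed TMEM30 TPM in control replicates 1 to 4 and 8.36%, 4.72%, 1.91% and 1.73% in cKO replicates 1 to 4. Its largest cKO share was below its smallest control share. *Tmem30a* gave 80.5% ± 5.77 of the sum in controls and 94.7% ± 3.04 in cKO (SD, n = 4 each), and *Tmem30b* at most 1.68% in any library. The sum itself was 84.9 to 105.7 TPM in controls and 78.8 to 84.8 TPM in cKO. These shares follow from the *Tmem30c* values that chose the genes and carry no separate evidence.

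**Figure D1:**
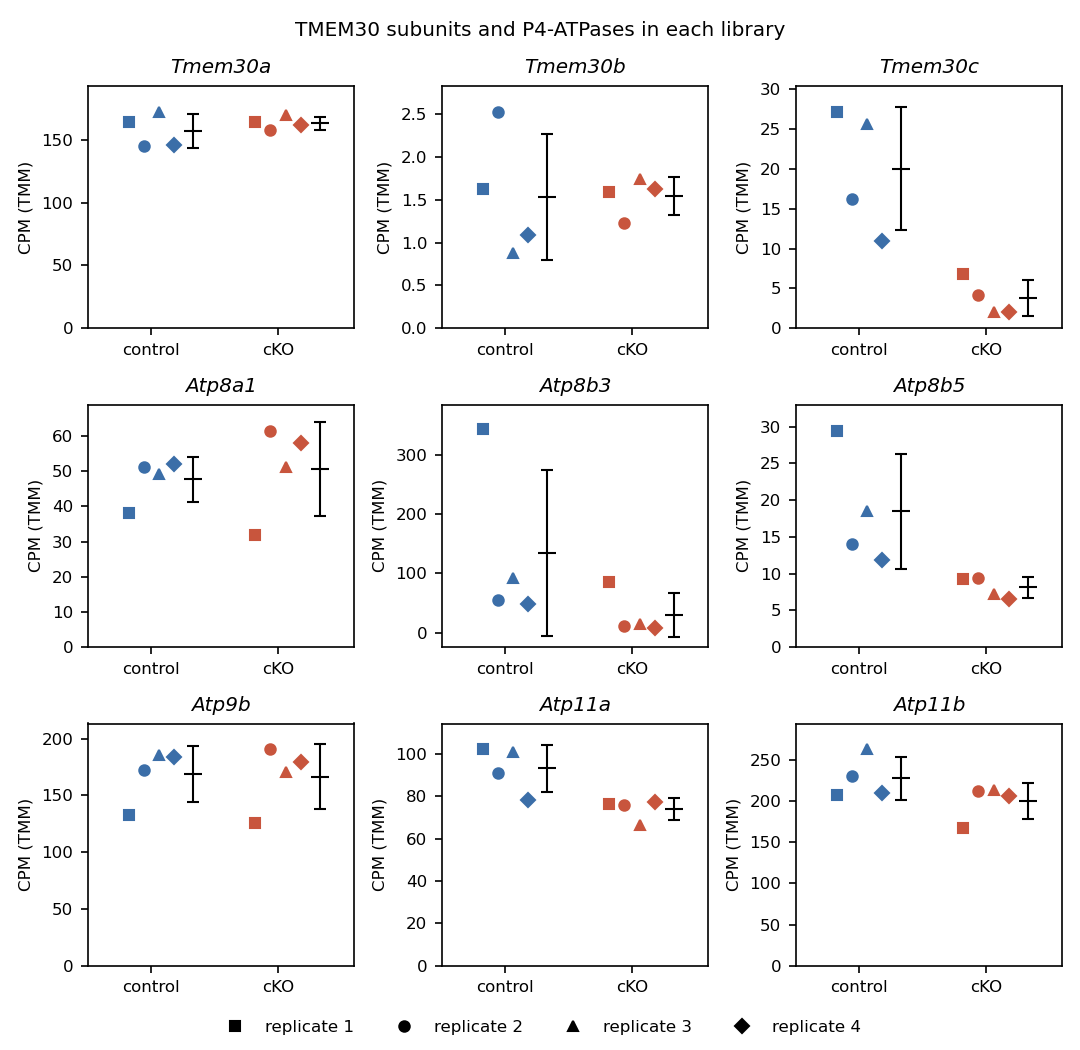
Expression of the 9 members in each library (y axis, TMM-scaled CPM, linear), for 4 control and 4 cKO mice on the x axis. Symbols mark the replicate number, and the horizontal bar with whiskers is the group mean ± SD. Every cKO point lies below every control point for *Tmem30c*, *Atp8b5* and *Atp11a*, whereas *Tmem30a* and *Tmem30b* overlap, and replicate 1 is the highest point of both groups for *Atp8b3*.

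Both testis-enriched ATPases had lower means in cKO. *Atp8b5*, also called FetA, is a flippase of the secretory pathway and acrosomal region of male germ cells (chr4:43267135-43373833, forward strand, 34 merged exons). It measured 29.5, 14.0, 18.6 and 11.9 CPM in control replicates 1 to 4 and 9.29, 9.45, 7.19 and 6.60 CPM in cKO replicates 1 to 4. No cKO library reached the lowest control. The means were 18.5 ± 7.84 and 8.13 ± 1.45 CPM (SD, n = 4 each), a ratio of 2.27, and the log2 fold change was −1.18 (SE 0.27). Without replicate 1 of both genotypes it was −0.94 (SE 0.18). Exons of *Atp8b5* share 2.83% of their length with the antisense gene *Gm52698*.

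*Atp8b3*, which encodes a flippase of the sperm head (chr10:80355418-80374990, reverse strand, 29 merged exons), varied more within each genotype than any other member. It measured 343.4, 55.0, 91.8 and 48.6 CPM in control replicates 1 to 4 and 86.1, 11.2, 13.8 and 7.59 CPM in cKO replicates 1 to 4. Replicate 1 was the highest in both genotypes, and cKO replicate 1 lay above control replicates 2 and 4. Among replicates 2 to 4 the genotypes did not overlap. The means were 134.7 ± 140.4 and 29.7 ± 37.7 CPM (SD, n = 4 each), and the log2 fold change was −2.18 (SE 1.07). It was −1.13 without control replicate 1, −3.63 without cKO replicate 1 and −2.59 (SE 0.39) without both.

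*Atp11a*, a plasma membrane flippase for phosphatidylserine that caspases cleave in apoptosis (chr8:12807003-12918729, forward strand, 32 merged exons), was lower by a smaller ratio. It measured 102.2, 91.2, 101.2 and 78.5 CPM in control replicates 1 to 4 and 76.2, 76.2, 66.4 and 77.4 CPM in cKO replicates 1 to 4. The highest cKO library lay just under the lowest control. The means were 93.3 ± 11.0 and 74.0 ± 5.13 CPM (SD, n = 4 each), a ratio of 1.26, and the log2 fold change was −0.33 (SE 0.10). On the TPM scale the ranges of *Atp11a* overlapped, with 41.3 to 58.0 TPM in controls and 31.5 to 44.6 TPM in cKO. Antisense genes share 4.21% of its exon length.

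*Atp11b*, the endosomal member of the same class (chr3:35808205-35910427, forward strand, 32 merged exons), measured 206.9, 231.0, 262.7 and 209.9 CPM in controls and 167.9, 211.9, 213.7 and 206.4 CPM in cKO. The ranges overlapped, and cKO replicate 1 was the lowest library. The log2 fold change was −0.19 (SE 0.10).

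*Atp8a1*, a phosphatidylserine flippase of endosomes and the Golgi (chr5:67775481-68004883, reverse strand, 40 merged exons), measured 38.2, 51.1, 49.3 and 52.1 CPM in controls and 31.7, 61.5, 51.2 and 57.9 CPM in cKO. Replicate 1 was the lowest of both groups, the opposite of *Atp8b3*, and the genotypes overlapped. The log2 fold change was 0.09 (SE 0.19) over all 8 libraries and 0.16 (SE 0.09) in replicates 2 to 4.

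*Atp9b*, the trans-Golgi ATPase that needs no TMEM30 subunit (chr18:80777265-80977316, reverse strand, 32 merged exons), measured 133.1, 172.3, 185.5 and 183.9 CPM in controls and 125.7, 190.5, 170.7 and 179.3 CPM in cKO. Replicate 1 was again the lowest of both groups. The log2 fold change was −0.02 (SE 0.14), with a sign that turned in 4 of 19 alternative settings, as it did for *Atp8a1* in 2 of 19.

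Of the 9 members, 3 (*Tmem30c*, *Atp8b5* and *Atp11a*) had every cKO library below every control library, against 3.03% of the 20187 genes tested, and 0 had every cKO library above, against 2.47%. In the fit over all genes with edgeR's quasi-likelihood test, 0 of 9 members were called at an adjusted p under 0.05, against 0.0396% of all genes called as lower (8 of 20187). At an unadjusted p under 0.05, 3 members passed, all lower in cKO, as did 1796 of all genes (1267 lower and 529 higher). DESeq2 called 2 of 9, *Tmem30c* and *Atp8b5*, against 1.42% of all genes called as lower. The median log2 fold change was −0.19 over the members and 0.01 over all genes tested. As *Tmem30c* was selected on this contrast and the others beside it, nothing is read from these counts.

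**Figure D2:**
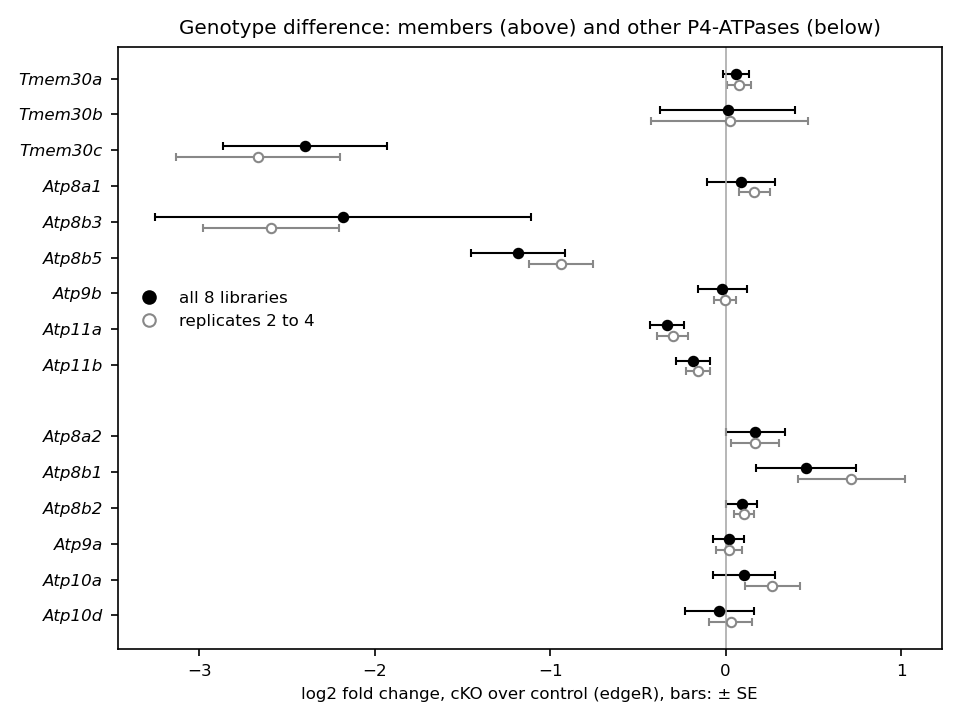
Log2 fold change, cKO over control (x axis, edgeR fit, whiskers ± SE), for the 9 members in the upper block and 6 of the 7 other P4-ATPases tested in the lower block. Filled points use all 8 libraries and open points replicates 2 to 4 of both genotypes. *Tmem30c*, *Atp8b3* and *Atp8b5* lie at −2.40, −2.18 and −1.18, and the 6 other P4-ATPases lie between −0.04 and 0.46.

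Sequences upstream of the transcription start are shown for 4 members, the ubiquitous *Tmem30a* and the ATPases *Atp8b3*, *Atp8b5* and *Atp11a* that had lower means in cKO, so that their base composition can be compared. They come from the RefSeq promoter table of GRCm38.p6, which held 7 of the 9 members and none for *Tmem30c* and *Atp9b*, and each was found once and exactly in GRCm39. Bases within exons of protein-coding genes were removed, and up to 250 bases before the start were kept. They lie at chr9:79700854-79700962 (reverse strand) for *Tmem30a*, chr10:80374991-80375208 (reverse strand) for *Atp8b3*, chr4:43266909-43267134 (forward strand) for *Atp8b5* and chr8:12806766-12807002 (forward strand) for *Atp11a*. Each is written 5′ to 3′ on the strand of its gene, and capitals mark the GC box GGGCGG or its complement.
Tmem30a: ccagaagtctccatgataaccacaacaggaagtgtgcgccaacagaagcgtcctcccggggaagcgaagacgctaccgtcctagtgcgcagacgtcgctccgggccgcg
Atp8b3: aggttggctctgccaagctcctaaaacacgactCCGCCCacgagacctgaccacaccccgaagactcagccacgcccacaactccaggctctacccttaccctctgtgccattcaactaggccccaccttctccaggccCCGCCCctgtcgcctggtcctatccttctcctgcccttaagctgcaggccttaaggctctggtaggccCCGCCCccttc
Atp8b5: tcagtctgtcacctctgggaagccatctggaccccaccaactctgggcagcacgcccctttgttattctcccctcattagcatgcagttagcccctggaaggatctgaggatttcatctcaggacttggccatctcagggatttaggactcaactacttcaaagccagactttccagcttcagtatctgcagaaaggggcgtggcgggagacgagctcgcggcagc
Atp11a: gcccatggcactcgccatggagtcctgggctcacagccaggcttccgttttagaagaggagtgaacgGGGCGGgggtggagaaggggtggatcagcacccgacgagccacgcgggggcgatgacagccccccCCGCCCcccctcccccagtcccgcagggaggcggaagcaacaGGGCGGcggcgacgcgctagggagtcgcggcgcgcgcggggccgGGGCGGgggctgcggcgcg

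The upstream sequence of *Atp8b5* had the lowest GC content, 54.9%, and held 0 GC boxes. That of *Atp8b3* had 62.4% GC and 3 GC boxes, at 217, 111 and 43 bases before the RefSeq start site, that of *Atp11a* 75.1% and 4, and that of *Tmem30a* 62.4% and 0. *Tmem30b* and *Atp11b* each held 6 GC boxes and *Atp8a1* held 1. The GC box occurs in 32.7% of the 32851 mouse promoters of the table, counted over 250 bases on both strands. The A-MYB core AACNGNC, present in 27.7% of promoters, was found in 1 of the 7 sequences, that of *Atp11b*, where it overlaps a GC box. The CCAAT box, searched as its name spells and present in 33.8% of promoters, was found in 0 of the 7 windows. The same held for the cyclic AMP response element TGACGTCA, which 1.55% of promoters hold. Its shorter form TGACG, contained in the full element, is held by 17.8% of promoters and was found in 0 of 7. The X-box part GTTGCC occurs in 10.4% of promoters, and the TATA box, searched by the letters TATAAA, occurs in 12.4%. Both were found in 0 of the 7. A match is a description of letters and not of a bound site, and the shortened windows hold fewer bases than those behind the shares. For *Tmem30a*, 141 bases next to the RefSeq start were removed and 109 were kept. Its GC content and GC box count thus describe a stretch farther from the start than those of *Atp8b3*, *Atp8b5* and *Atp11a*.

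The levels of the members were compared on the TPM scale. The order of mean TPM over the 8 libraries was *Atp9b* (80.2 ± 13.3), *Tmem30a* (77.2 ± 3.30), *Atp11b* (73.5 ± 9.51), *Atp11a* (44.5 ± 8.88), *Atp8b3* (33.2 ± 44.7), *Atp8a1* (16.1 ± 5.10), *Tmem30c* (10.8 ± 9.43), *Atp8b5* (5.80 ± 2.78) and *Tmem30b* (0.886 ± 0.292; SD, n = 8). Neighbours in this order were compared within libraries with a two-sided exact sign-flip permutation test on log2(TPM + 0.1), adjusted over all 36 pairs. *Atp11b* exceeded *Atp11a* in 8 of 8 libraries by 0.74 ± 0.30 log2 units, and *Atp8b5* exceeded *Tmem30b* in 8 of 8 by 2.49 ± 0.87 (SD; exact p = 0.00781 for each, the smallest the test can give, adjusted p = 0.0117). The other 6 neighbouring pairs were not called as different over the 8 libraries. Adjusted p by the exact test was 0.74 for *Atp9b* and *Tmem30a*, 0.24 for *Tmem30a* and *Atp11b* and 0.066 for *Atp11a* and *Atp8b3*. It was 0.86 for *Atp8b3* and *Atp8a1*, 0.18 for *Atp8a1* and *Tmem30c* and 0.31 for *Tmem30c* and *Atp8b5*. The test pools both genotypes, so a pair whose order turns with genotype can go uncalled.

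Some of these pairs were ordered differently in the groups. *Atp8b3* ran from 21.5 to 139.0 TPM in controls, above *Atp8a1* at 10.8 to 18.4 TPM, and these ranges overlapped in cKO. *Tmem30c* ran from 1.43 to 7.09 TPM in cKO, below *Atp8a1* at 8.46 to 24.8 TPM, and these ranges overlapped in controls. By group means, *Atp8b3* held rank 4 in controls (54.7 TPM) and rank 6 in cKO (11.7 TPM), and *Tmem30c* held rank 6 in controls (18.2 TPM) and rank 8 in cKO (3.46 TPM). *Tmem30c* was 2.34, 2.06, 2.94 and 1.71 times *Atp8b5* in TPM in control replicates 1 to 4, and 2.10, 0.663, 0.537 and 0.473 times in cKO replicates 1 to 4. It was therefore the more abundant of the pair in all 4 controls and in cKO replicate 1, and the less abundant in the 3 other cKO libraries. *Atp8b3* was 1.58 to 5.39 times *Tmem30c* in controls and 1.15 to 4.72 times in cKO, with the highest ratio in replicate 1 of each genotype.

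**Figure D3:**
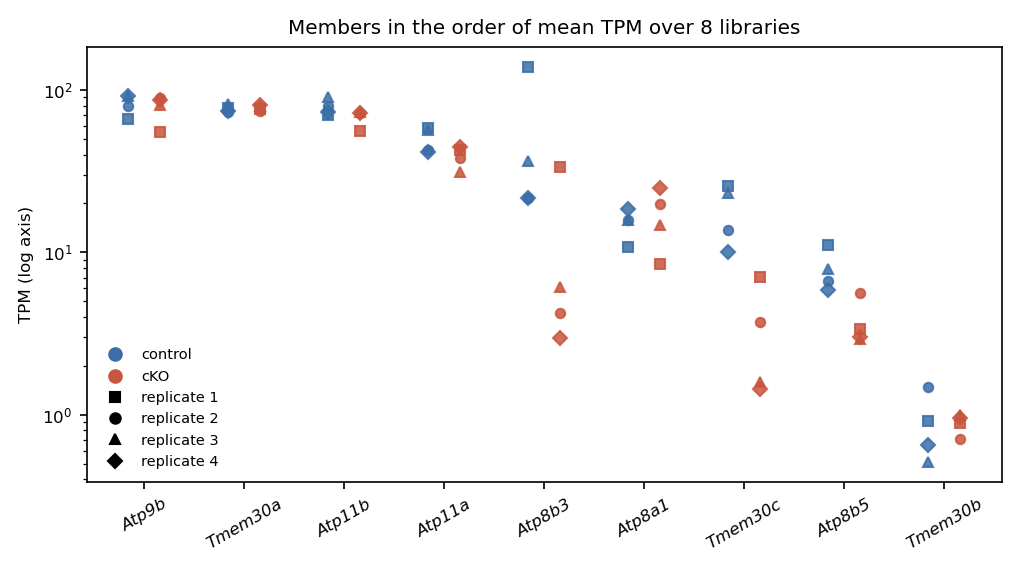
TPM of the 9 members in each library (y axis, log scale), ordered on the x axis by mean TPM over the 8 libraries, with control points to the left and cKO points to the right of each tick and symbols for replicates. *Atp9b*, *Tmem30a* and *Atp11b* lie together at 55.1 to 92.2 TPM, *Tmem30b* lies lowest at 0.51 to 1.48 TPM, and *Atp8b3* spans 2.95 to 139.0 TPM.

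Among the 6 P4-ATPase members and the 9 others of the family, *Atp8b3* and *Atp8b5* together gave 27.1%, 6.08%, 8.42% and 5.50% of the summed P4-ATPase TPM in control replicates 1 to 4 and 9.40%, 2.08%, 2.07% and 1.19% in cKO replicates 1 to 4. Replicate 1 had the largest share in both genotypes, and the cKO share of replicate 1 exceeded the shares of 3 controls. The sum was 466.2 to 553.6 TPM in controls and 392.0 to 503.1 TPM in cKO.

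The levels of *Tmem30c*, *Atp8b3* and *Atp8b5* were set beside the pachytene and spermatid markers. Of the 12 pachytene markers, 11 had a negative log2 fold change (median −1.23), 0 were called by edgeR, 3 had an unadjusted p under 0.05 and 1 was called by DESeq2. Their sums were 2398, 787.1, 1067 and 656.7 TPM in control replicates 1 to 4 and 831.2, 345.5, 357.4 and 305.8 TPM in cKO replicates 1 to 4. *Tmem30c* amounted to 10.8, 17.4, 21.7 and 15.3 TPM per 1000 TPM of these markers in control replicates 1 to 4 and 8.53, 10.8, 4.42 and 4.68 in cKO replicates 1 to 4. Scaled so, cKO replicate 2 and control replicate 1 met, and the other 3 cKO libraries lay below all controls. This scale leaned on few genes, as *Ldhc* alone gave 40.3% of the pachytene marker sum. *Atp8b5* amounted to 4.60 to 8.98 TPM per 1000 in controls and 4.05 to 16.2 in cKO, with overlap. *Atp8b3* amounted to 27.6 to 58.0 in controls and to 40.3, 12.3, 17.2 and 9.65 in cKO replicates 1 to 4, with cKO replicate 1 inside the control range. Of the 10 spermatid markers, 5 were tested, of which 4 had a negative log2 fold change (median −0.53), 0 were called by edgeR, 1 had an unadjusted p under 0.05 and 1 was called by DESeq2. The 10 spermatid markers summed to 80.7, 39.9, 35.1 and 33.8 TPM in control replicates 1 to 4. In cKO replicates 1 to 4 they summed to 34.3, 18.8, 23.4 and 23.7 TPM. These sums were led by *Dbil5* and are not read as counts of spermatids. The part of both marker lists in the differences was not tested, and in bulk RNA fewer cells of a type and less RNA per cell cannot be told apart. The median log2 fold change of the pachytene markers was −0.44 without control replicate 1 and −2.25 without cKO replicate 1, and that of the spermatid markers was −0.43 and −0.53. In replicates 2 to 4 of both genotypes the medians were −1.12 for the pachytene markers (11 of 12 negative) and −0.47 for the spermatid markers (4 of 5 negative).

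**Figure D4:**
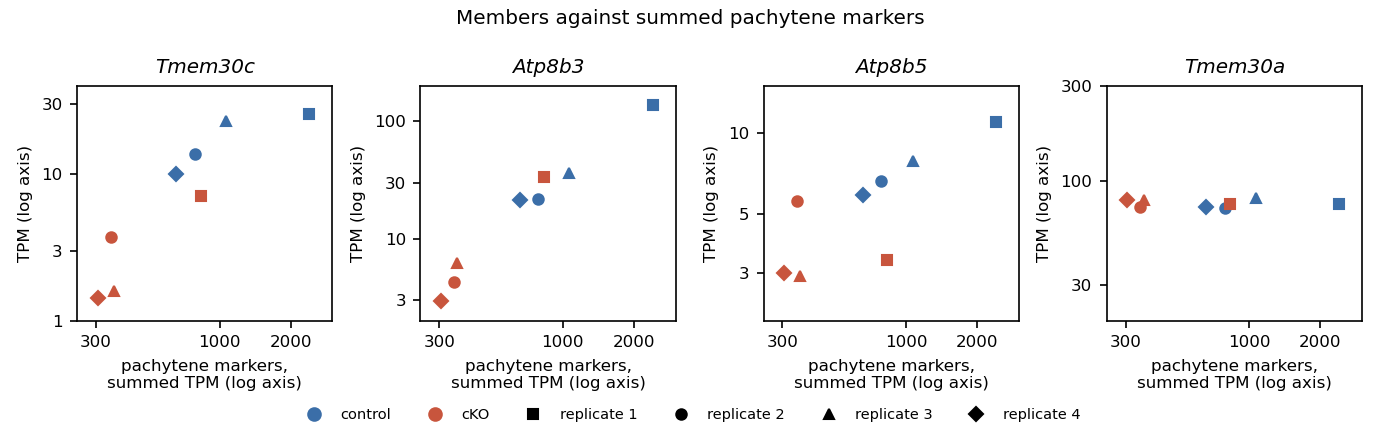
TPM of *Tmem30c*, *Atp8b3*, *Atp8b5* and *Tmem30a* (y axes, log scale) against the summed TPM of 12 pachytene markers in the same library (x axes, log scale), with colours for genotype and symbols for replicates. The 3 cKO libraries with the lowest marker sums (305.8 to 357.4 TPM) have the lowest *Tmem30c* and *Atp8b3* values. *Atp8b5* breaks this order, with its highest cKO value, 5.61 TPM, in cKO replicate 2 (marker sum 345.5 TPM). *Tmem30a* stays between 73.0 and 82.0 TPM.

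The likeness of other genes to *Tmem30c* was measured by Pearson's r of log2 CPM over the 8 libraries after the genotype means were subtracted, among 14843 protein-coding genes. The 5 highest were *Exosc8* (r = 0.993), which encodes an RNA exosome subunit, *Ccnh* (0.979), the cyclin of the CDK-activating kinase, *Atp6v1d* (0.974), a subunit of the vacuolar proton pump, *Abhd10* (0.969) and *Pcnx4* (0.962). With the genotype means left in, their r ranged from −0.51 for *Exosc8* to 0.80 for *Pcnx4*. These 5 were picked as the highest of 14843 values from 8 libraries, and whether r this high exceeds chance was not tested. The members themselves stood lower, with *Atp8b3* at 0.806 (rank 568), *Atp8b5* at 0.782 (rank 754) and *Atp11a* at 0.700 (rank 1621). *Tmem30a* had r = 0.389, *Tmem30b* −0.145, *Atp11b* −0.310, *Atp9b* −0.619 and *Atp8a1* −0.673. These values describe 8 libraries, in which replicate 1 of each genotype stood apart by its pachytene sum and had the highest *Tmem30c* of its group. Among controls, *Tmem30c* was lowest in replicate 4, with 10.9 CPM.

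The rest of the P4-ATPase family was read from the same fit. These genes are what remained once the members had been chosen with results of these libraries known, so they are not an independent set. Of 9 other P4-ATPases, 7 were tested, *Atp8b4* was under 1 TPM in all libraries and *Atp10b* was at 0. None passed, with 0 of 7 called by edgeR, 0 by DESeq2 and 0 at an unadjusted p under 0.05. The median log2 fold change was 0.10, and 6 of 7 values were positive. *Atp8b1*, the flippase-family gene of bile canaliculi, measured 2.65, 2.46, 2.21 and 1.87 CPM in controls and 1.86, 3.43, 3.56 and 3.83 CPM in cKO, a log2 fold change of 0.46 (SE 0.29, adjusted p = 0.66 by edgeR). *Atp8b2*, the most abundant gene of the family with 149.3 TPM over the 8 libraries, had 0.09 (SE 0.09, adjusted p = 0.79 by edgeR). *Atp9a*, the paralog of *Atp9b*, had 42.3 TPM and 0.02 (SE 0.09, adjusted p = 0.98 by edgeR).

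Scramblases move phospholipids in both directions and expose phosphatidylserine. Of 25 listed scramblases and partner proteins, 17 were tested and 0 were called by edgeR or DESeq2, with 2 at an unadjusted p under 0.05 and a median log2 fold change of 0.00. *Atg9a*, the scramblase of autophagy vesicles, measured 79.7, 53.6, 57.4 and 44.0 CPM in control replicates 1 to 4 and 41.8, 38.4, 41.3 and 40.5 CPM in cKO replicates 1 to 4. Its cKO values lay below all controls, with a log2 fold change of −0.53 (SE 0.15) and an adjusted p of 0.35 by edgeR. In replicates 2 to 4 alone the log2 fold change was −0.37 (SE 0.10), with an adjusted p of 0.015 by edgeR. That subset was chosen after the data were seen, and 855 of all 20187 genes tested were called in it. *Vmp1*, a scramblase of the endoplasmic reticulum, measured 62.04 ± 2.60 CPM in controls and 71.4 ± 5.44 CPM in cKO (SD, n = 4 each), with a log2 fold change of 0.20 (SE 0.08). Its adjusted p was 0.51 by edgeR. In replicates 2 to 4 the log2 fold change of *Vmp1* was 0.15 (SE 0.08, adjusted p = 0.44 by edgeR). *Bsg* and *Nptn*, which encode the partners of the caspase-activated scramblase XKR8, were the most abundant of the list at 585.9 and 129.5 TPM, with log2 fold changes of −0.09 (SE 0.07) and 0.14 (SE 0.08).

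Phosphatidylserine is made by the synthases encoded by *Ptdss1* and *Ptdss2*, is decarboxylated in mitochondria by *Pisd*, and is moved between membranes by *Osbpl5* and *Osbpl8*. None of these 5 genes was called by edgeR (0) or DESeq2 (0), 1 had an unadjusted p under 0.05, and the median log2 fold change was 0.03. *Ptdss2* measured 90.8, 55.2, 53.2 and 52.0 CPM in control replicates 1 to 4 and 56.0, 41.5, 41.3 and 42.5 CPM in cKO replicates 1 to 4. Replicate 1 was the highest of both groups, and the log2 fold change was −0.47 (SE 0.19, adjusted p = 0.53 by edgeR). Without replicate 1 of both genotypes it was −0.36 (SE 0.09, adjusted p = 0.0085 by edgeR). In that subset, chosen after the data were seen, the others of the list had adjusted p from 0.47 (*Ptdss1*) to 0.85 (*Pisd*) by edgeR. *Ptdss1* and *Osbpl8* had log2 fold changes of 0.07 (SE 0.09) and 0.09 (SE 0.08), and the most abundant genes *Pisd* and *Osbpl5* (43.4 and 40.7 TPM) had 0.00 (SE 0.11) and 0.03 (SE 0.13).

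Of 16 receptors, bridging proteins and engulfment genes that recognize phosphatidylserine, 15 were tested, 0 were called by edgeR or DESeq2, 1 had an unadjusted p under 0.05, and the median log2 fold change was 0.11. *Itgav*, the integrin chain that binds the bridging protein MFGE8, measured 44.8 ± 2.48 CPM in controls and 54.2 ± 6.41 CPM in cKO (SD, n = 4 each), a log2 fold change of 0.27 (SE 0.10, adjusted p = 0.46 by edgeR). In replicates 2 to 4 alone it was 0.35 (SE 0.09, adjusted p = 0.012 by edgeR). Its partner *Itgb5* had 0.15 (SE 0.08) and *Pros1*, the bridging protein S, 0.17 (SE 0.09), with adjusted p of 0.61 and 0.62 by edgeR. In replicates 2 to 4, a subset chosen after the data were seen, the adjusted p of *Itgb5* and *Pros1* was 0.60 and 0.50 by edgeR. The most abundant genes were *Scarb1*, a receptor of Sertoli cells, with 164.5 TPM and a log2 fold change of −0.01 (SE 0.08), and *Mfge8*, with 149.7 TPM and 0.12 (SE 0.08).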

How the data were processed

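Germ cell RNA of 8 mice, 4 per genotype, was sequenced as unstranded polyadenylated libraries. Per the labels, the authors aligned reads to GRCm39 with STAR 2.7.9a and quantified Ensembl 105 genes with RSEM 1.3.3, and deposited expected counts, not normalized between samples, of which 6.37% were not whole. The deposited TPM values are RSEM's estimates, scaled for length and depth in each library. DESeq2 1.38.3 is named in the submitters' processing notes, and no fold change or p-value of the authors was used.

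Expected counts were rounded, and 20187 genes with at least 1 TPM in at least 1 library were fitted over all 8 libraries with edgeR 4.0.16 (TMM, robust quasi-likelihood test, Benjamini-Hochberg adjustment, threshold 0.05). Replicates are separate mice. The script was tested on simulated data. Alternatives were DESeq2 1.42.0, limma-voom and limma-trend (limma 3.58.1), other scalings and filters, a replicate block, each library left out, and replicates 2 to 4, the last chosen after the data were seen. The floor of 3 counts covers counting error only. Members and lists were chosen with earlier results of these data known. Named are *Mgat2*, the members and, in each list, genes called or else the 3 with the lowest p and the 2 with the highest TPM. The 5 genes most like *Tmem30c* are also named. A gene that this rule names among the other P4-ATPases is not reported here. Positions are from GENCODE mouse release 39. R 4.3.3, Python 3.11.15 and scipy 1.17.1 were used.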

Additional observations from a re-analysis of the deposited data

Results flagged for a closer look

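A library far from the other 3 of its group, by Dixon's ratio of the gap to the range over 0.829, was found in 4 of 18 groups examined (9 members in each genotype). For 1 group alone, chance gives about 1 in 20. The groups are the same 8 libraries read through 9 genes and are not independent, so the count is not compared with that rate. *Atp8b3* measured 343.4 CPM in control replicate 1 against 48.6 to 91.8 CPM in the other controls, and 86.1 CPM in cKO replicate 1 against 7.59 to 13.8 CPM in the other cKO libraries. *Atp11b* measured 167.9 CPM in cKO replicate 1, the lowest, against 206.4 to 213.7 CPM. *Atp11a* measured 66.4 CPM in cKO replicate 3, the lowest, against 76.2 to 77.4 CPM. All but the *Atp11a* value are in replicate 1, which also had the highest sum of pachytene markers in its genotype, and the part of those markers was not tested.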

How the results depend on the processing

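Genes called over the whole table numbered 8 with edgeR, 304 with DESeq2, 18 with upper-quartile scaling, 17 with library totals alone, 35 with no filter, and 0 with limma-voom, with filterByExpr and on log2(TPM + 1) or log2(TPM + 0.1). Leaving out each library gave 0 to 32, and replicates 2 to 4 alone gave 855. Members called rose from 0 of 9 to 2 with DESeq2 and to 4 in replicates 2 to 4, against 304 and 855 of all 20187 genes tested. As the members were chosen with this contrast in view, nothing is read from their counts. In replicates 2 to 4, 1 scramblase (*Atg9a*), 1 phosphatidylserine synthesis gene (*Ptdss2*) and 1 receptor (*Itgav*) were also called. The cause was not tested. The other P4-ATPases stayed at 0 called in all 19 alternatives.

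The replicate number as a replicate block gave 1464 of all 20187 genes tested, 4 of 9 members, 1 scramblase (*Atg9a*) and 1 synthesis gene (*Ptdss2*). Nothing is read from this count of members either. The labels do not say whether same-numbered mice share a litter or a day. Deviations of same-numbered libraries correlated at 0.508, 0.129, 0.034 and 0.180. Control replicates 2 and 3 correlated best with cKO replicates 4 (0.156) and 2 (0.063). Control replicate 4 correlated at 0.1801 with cKO replicate 2 and at 0.1797 with cKO replicate 4. Whether same-numbered mice share a factor was not tested.

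Of 171 alternative values of the members' log2 fold changes, 170 moved by less than the gene's own SD between replicates. The exception was *Atp8b3* at −3.63 without cKO replicate 1. This limit is wide for variable genes. The SD of *Atp8b3* was 1.43 log2 units, so −1.13 without control replicate 1, against −2.18, counted as unmoved. The changes of sign of *Tmem30b*, *Atp9b* and *Atp8a1* also counted as unmoved. *Tmem30c* ranged from −2.85 to −2.19 and *Atp8b5* from −1.34 to −0.86. Other scalings moved the median of all genes by at most 0.03. The count of neighbouring levels that differed was 2, or 3 without control replicate 1. The 4 controls alone gave ranks and no test. At these depths *Tmem30b*, with 14 to 39 counts, could not show a small difference.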
